A study of Mus musculus with 12 samples.

Results

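The proteasome subunits were examined in gastrocnemius muscle from the FSHD-like mouse models. They were chosen by name: of the 37748 genes in the count table, 43 had a symbol made of Psma, Psmb, Psmc, Psmd or Psme and a number, and the 41 with at least 10 expected counts in at least 3 of the 12 libraries were kept. The remaining pair were Psma8, with at most 13 counts in any library, and Psmb11, the thymus subunit, with at most 1. Every kept subunit entered the tests, and the lowest count of any of them in any mouse was 32.4, for Psmb9.

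Muscles of 12 mice, 3 per group and 13 weeks old, were profiled by poly(A) RNA-seq with 1 library per mouse. Control mice were ACTA1-MCM/+, which carry a tamoxifen (TMX)-inducible Cre recombinase (MerCreMer) under a skeletal muscle promoter, and received no TMX. FLExD mice were FLExDUX4/+, with the conditional DUX4-fl transgene in the Rosa26 locus but no Cre, and also received no TMX; their GEO description reads mild pathology, although the strain lists no Cre. Moderate model mice were FLExDUX4/+;MCM/+ and received TMX at 5 mg/kg in 1 injection, and severe model mice had the same genotype and received 10 mg/kg on 2 consecutive days. Muscles of both models were taken on day 9. Recombination in the models is mosaic and restricted to muscle fibers, so each library mixes fibers with and without DUX4-fl and all other cells of the muscle. Both models differ from the controls in carrying both transgenes and in TMX, and these cannot be told apart here.

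The proteasome degrades ubiquitin-tagged proteins and is the main route by which muscle fibers remove short-lived, damaged and, during wasting, myofibrillar proteins. Its 20S core stacks rings of alpha subunits, which gate the chamber, around rings of beta subunits, of which Psmb5, Psmb6 and Psmb7 cleave proteins; the 19S regulatory particle recognizes, unfolds and feeds in the substrates with a base of ATPases and a lid. Under interferon-gamma and in leukocytes, Psmb8, Psmb9 and Psmb10 replace Psmb5, Psmb6 and Psmb7 to form the immunoproteasome, which alters the peptides made for MHC class I. Of the 41 kept genes, 7 encoded alpha subunits, 4 non-catalytic beta subunits, 3 the constitutive catalytic subunits, 3 the immunoproteasome subunits, 6 the 19S ATPases, 3 other subunits of the 19S base, 8 the 19S lid, 3 chaperones of 19S assembly and 4 the activators that cap the core in place of the 19S particle.

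Library depth ranged from 23796902 to 29136403 expected counts per mouse, and the 41 subunits together held between 64622 and 105809 of them. The labels were checked with Wfdc3, a target gene of DUX4-FL in the mouse, which had 3, 8 and 3 counts in the control mice, 4, 1 and 8 in FLExD, 2910.0, 2005 and 2083 in moderate and 2776, 3574 and 4790.0 in the severe mice. All 6 mice with both transgenes stood far above the 6 with 1. The tissue was checked with 9 markers of muscle fibers, all of which were detected in every library, with Tnnt3 the most abundant in 11 mice and Acta1 in severe mouse 1047. Their summed TPM (transcripts as a part of all transcripts, corrected for length) was 89846, 72856 and 99236 in control, 74366, 66932 and 93463 in FLExD, 41829, 48111 and 48411 in moderate and 11123, 19031 and 16795 in severe mice. Muscle transcripts thus made up a smaller part of the libraries in both models, and in bulk tissue fewer fibers and less RNA per fiber cannot be told apart.

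This shift in composition bears on every statement about direction. Levels are given as CPM (counts relative to 1000000 counts of TMM-scaled library size), and TMM factors were 0.706 to 0.724 in the control mice but 1.69 to 1.87 in the severe mice. With TMM, the median log2 fold change of all 16679 genes tested was 0.04 in moderate and 0.08 in severe mice against control; with library size alone it was 0.65 and 1.39. TMM changes therefore describe a subunit relative to the typical gene, while library size alone and TPM describe its part of all mRNA.

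As a part of all mRNA the proteasome was larger in the more severe groups. Relative to the typical gene most subunits were lower with TMM, but not on the log2(TPM + 1) scale in the severe model. The summed TPM of the 41 subunits was 2196, 2106 and 2343 in control, 1989, 2011 and 2457 in FLExD, 2877, 2815 and 2863 in moderate and 3684, 4085 and 3689 in severe mice. Control and FLExD mice overlapped, every moderate mouse lay above them and every severe mouse above the moderate mice. The median log2 fold change of the 41 with TMM was -0.10 in moderate and -0.32 in severe mice. With library size alone it was 0.50 and 0.98. All 41 were then above 0 in the severe model, where 75.4% of all genes tested were called higher and 6.42% lower. The share of all genes above 0 is not given here. Measured from the median gene of each setting, the subunits' median in the severe model lay at -0.40 with TMM and -0.40 with median-of-ratios factors. It lay at -0.41 with library size alone, but above the median gene, at 0.07, on the log2(TPM + 1) scale. That scale compresses low genes, and the part of this in the difference was not tested.

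**Figure D1:**
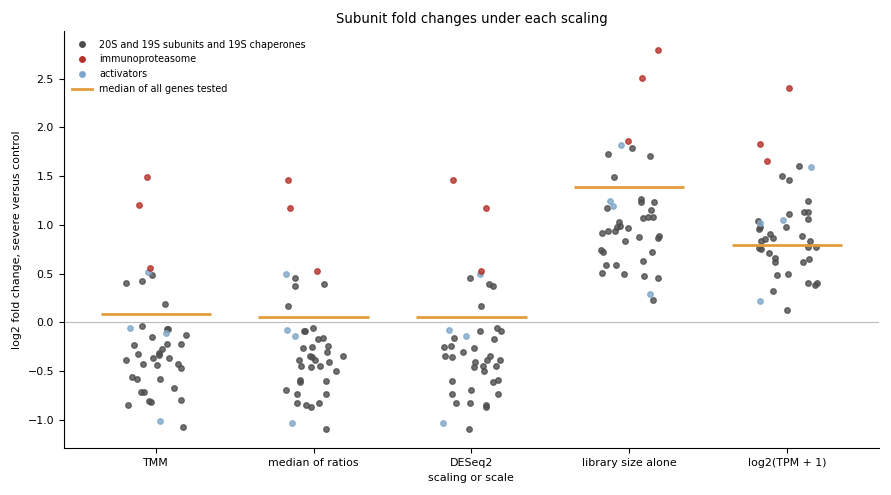
Log2 fold change in the severe model versus control (vertical axis) of each of the 41 subunits (points, coloured by class) under 5 scalings or scales (horizontal axis), with the median of all genes tested as a bar. With TMM, median of ratios and DESeq2 most 20S and 19S subunits lie below 0, with library size alone and log2(TPM + 1) all lie above 0, and the immunoproteasome points lie above the bar in each.

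A subunit was called when edgeR's Benjamini-Hochberg adjusted p, taken over all 16679 genes, was under 0.05 and its log2 fold change at least 0.5 in size. Between FLExD and control muscle no subunit was called by edgeR, DESeq2 or limma, with 0 of 41 higher (background 0% of all genes tested) and 0 lower (background 0.00600%). Psmd5 and Psmd9, both chaperones of 19S assembly, had an unadjusted p under 0.05 with edgeR and with DESeq2, that is 2 of 41 against 3.83% of all genes, and 0 of 41 did with limma. Subunit log2 fold changes between these groups ran from -0.15 to 0.22.

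In the moderate model, 4 of the 41 were called higher (background 24.4%) and 0 lower (background 17.0%). The 4 were Psmb8, Psmb10, Psme2 and Psmd11. The count of 0 lower lies close to the fold threshold: Psmb6, Psmb7, Psmc5 and Psme4 had log2 fold changes of -0.47, -0.47, -0.49 and -0.48, each with an adjusted p under 0.05. Without control mouse 1246 all 4 were called lower, 3 were without moderate mouse 1331 or any 1 of the FLExD mice, and 1 was without moderate mouse 1236 or control mouse 1349. In the severe model, 4 were called higher (background 32.9%), namely Psmb8, Psmb9, Psmb10 and Psme2 (7 with either other filter on low counts), and 12 lower (background 27.9%). The share of subunits called lower, 29.3%, was near that of all genes, while the share called higher, 9.76%, was below it. The share lower depends on the fold threshold: with none, 26 were called lower (background 33.5%) and 8 higher (background 37.7%) in severe mice, and 11 lower (background 24.9%) and 7 higher (background 29.0%) in moderate mice. With a threshold of 1 there were 2 lower (background 17.6%) and 2 higher (background 23.7%) in severe mice, and 0 lower (background 7.03%) and 0 higher (background 15.9%) in moderate mice. With library size alone the calls went the other way, with 21 of 41 higher in the moderate (background 52.5%) and 36 higher in the severe model (background 75.4%) and none lower in either (background 4.51% and 6.42%). On the log2(TPM + 1) scale limma called 13 higher in the moderate (background 31.5%) and 34 higher in the severe model (background 64.1%), and none lower (background 4.42% and 5.92%). Both models were compared with the same 3 control mice.

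In TMM-scaled CPM, all 3 severe mice lay below all 3 control mice for 28 of the 41 subunits (background 34.9%) and above them for 8 (background 40.0%), whereas with library size alone all 41 log2 fold changes were above 0. In the moderate model the counts were 14 below (background 28.5%) and 9 above (background 32.6%). The SD of the log2 fold changes in the severe model was 0.54 over the 41 subunits. Beside this it was 1.75 over all genes tested, which were not matched to the subunits by level. Over the 31 subunits of the constitutive 20S core and the 19S particle, it was 0.32. Of these 31, 29 lay below the median gene in the severe model with TMM and with library size alone, and 16 did on the log2(TPM + 1) scale.

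**Figure D2:**
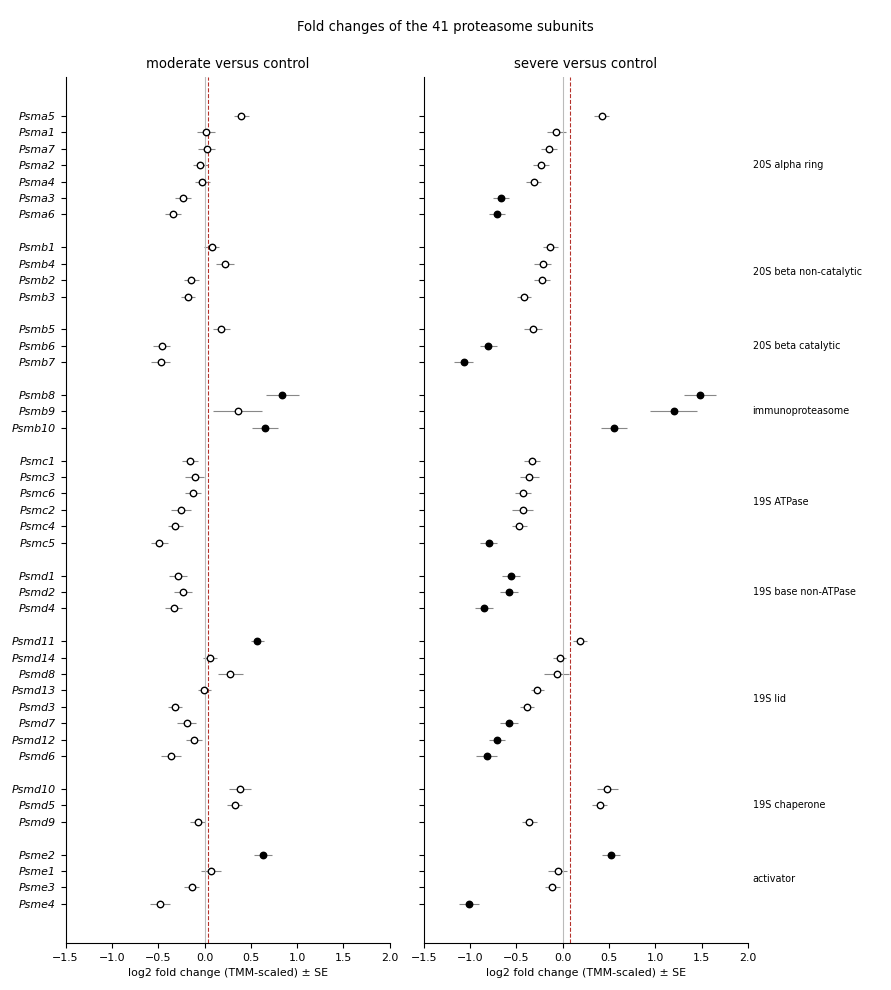
Log2 fold change with TMM scaling (horizontal axis, bars are SE) of each of the 41 subunits (vertical axis, grouped by class) in the moderate and severe models against control; filled points were called and the dashed line is the median of all genes tested. The immunoproteasome subunits and Psme2 stand on the right, most others on the left of the line in the severe model with this scaling, although with library size alone all 41 lie above 0.

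The immunoproteasome subunits are given here beside the catalytic subunits they replace. Psmb8, which replaces the chymotrypsin-like Psmb5, had CPM of 5.44, 3.32 and 4.93 in control, 5.02, 4.96 and 4.24 in FLExD, 9.62, 8.45 and 6.43 in moderate and 13.4, 12.4 and 12.6 in severe mice. Moderate mice lay above all control and FLExD mice and severe mice above all others. Its log2 fold change was 0.84 ± 0.18 (SE) in moderate (adjusted p 0.00108) and 1.49 ± 0.17 in severe mice (adjusted p 2.61e-06), and it was called higher under every scaling. Psmb9, which replaces the caspase-like Psmb6, had CPM of 2.95, 1.54 and 2.32 in control, 2.61, 2.23 and 1.78 in FLExD, 4.101, 2.34 and 2.25 in moderate and 5.501, 4.76 and 5.36 in severe mice. In these TMM-scaled values moderate mice 1308 and 1331 lay within the control range. In TPM the moderate mice had 5.71, 3.81 and 3.27 and the controls 3.25, 1.94 and 2.73. All moderate mice thus lay above all controls there, but the closest values were 3.27 and 3.25. The mean TPM was 4.26 ± 1.28 in moderate and 2.64 ± 0.6596 in control mice. The log2 fold change was 0.36 ± 0.27 in moderate (adjusted p 0.274) and 1.2 ± 0.25 in severe mice (adjusted p 0.000707). The moderate value was 0.11 without control mouse 1246, 0.56 without control mouse 1127 and 0.023 without moderate mouse 1236; scaled by library size alone, Psmb9 was called higher at 0.97. Psmb10, which replaces the trypsin-like Psmb7, had CPM of 7.98, 9.11 and 9.95 in control, 9.298, 10.01 and 7.62 in FLExD, 15.4, 15.6 and 11.6 in moderate and 14.3, 12.9 and 12.5 in severe mice. All mice of both models lay above the controls, and the moderate and severe mice overlapped. It rose, with log2 fold changes of 0.66 ± 0.14 in moderate (adjusted p 0.00109) and 0.55 ± 0.14 in severe mice (adjusted p 0.00227), a call lost in the severe model without control mouse 1127 or severe mouse 1047, at log2 fold changes of 0.46 and 0.50.

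In the severe model all 3 constitutive partners had log2 fold changes below 0 with TMM but above 0 with library size alone. Psmb5 had CPM of 58.3, 57.3 and 61.4 in control, 60.6, 56.6 and 59.8 in FLExD, 70.2, 61.9 and 68.6 in moderate and 40.6, 48.96 and 52.1 in severe mice. It was highest in the moderate mice, all above the controls, and lowest in the severe mice, all below them. Its log2 fold change was 0.18 ± 0.09 in moderate (adjusted p 0.122) and -0.32 ± 0.09 in severe mice (adjusted p 0.00709; 0.98 with library size alone), and neither passed the fold threshold with TMM. Psmb6 had CPM of 114, 104 and 116 in control, 112, 101 and 100.2 in FLExD, 85.5, 80.00 and 76.4 in moderate and 58.1, 63.3 and 70.1 in severe mice. Psmb7 had CPM of 196, 179 and 193 in control, 185, 183 and 184 in FLExD, 141, 127 and 141 in moderate and 78.6, 90.03 and 102 in severe mice. For both genes the moderate mice lay below all control and FLExD mice, and the severe mice below the moderate mice. In the severe model Psmb6 fell with TMM by a log2 fold change of -0.80 ± 0.09 (adjusted p 1.99e-06) but was 0.50 with library size alone. Psmb7, the lowest of all 41 subunits by log2 fold change, fell with TMM by -1.07 ± 0.10 (adjusted p 2.76e-07) but was 0.23 with library size alone, which is -1.16 from the median gene of that setting.

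**Figure D3:**
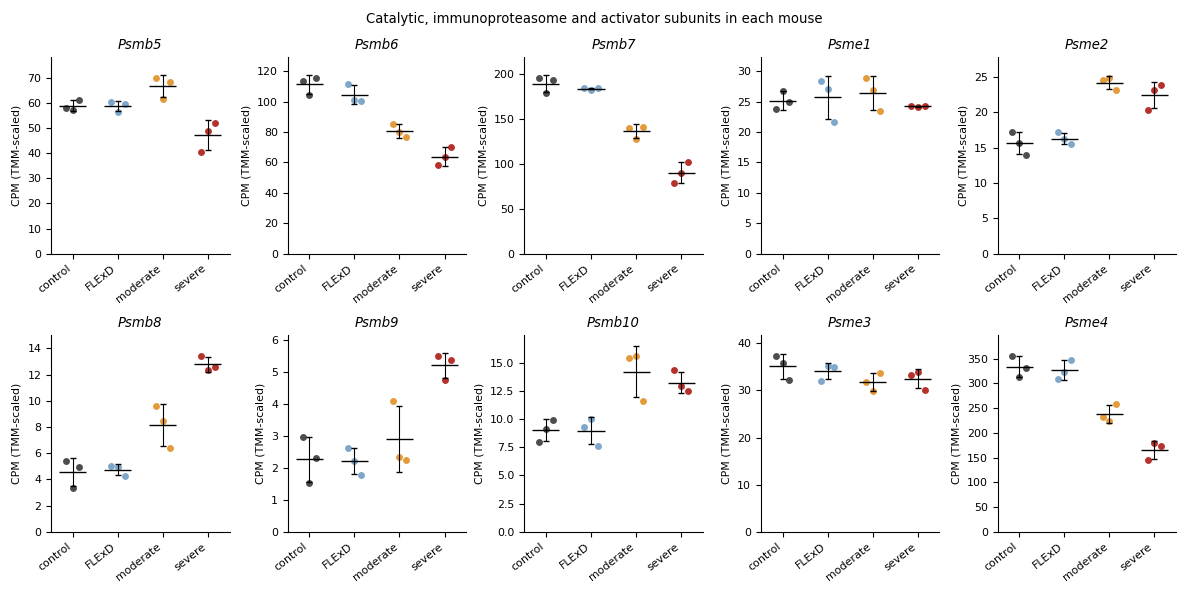
TMM-scaled CPM (vertical axes, from 0) of the constitutive catalytic, immunoproteasome and activator subunits in each of the 12 mice (points) by group, with mean and SD as bars. Psmb8 is highest in the 3 severe mice and Psmb7 and Psme4 are lowest in them with this scaling (with library size alone their log2 fold changes are above 0), while Psme1 and Psme3 overlap between the groups.

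Because an immunoproteasome subunit takes the place of its partner in the core, its share of the pair's summed TPM was also compared; a share within a library does not depend on scaling between libraries. Psmb8 made up 6.32, 4.36 and 6.17% of Psmb8 plus Psmb5 in the control mice, 6.22, 6.897 and 6.31% in FLExD, 10.2, 9.48 and 7.55% in moderate and 20.2, 16.01 and 15.8% in severe mice. Psmb9 made up 2.44, 1.58 and 1.92% of Psmb9 plus Psmb6 in the control, 2.12, 2.31 and 1.601% in FLExD, 4.05, 2.69 and 2.63% in moderate and 7.601, 6.04 and 5.81% in severe mice. Psmb10 made up 4.17, 5.07 and 4.98% of Psmb10 plus Psmb7 in the control, 4.99, 5.297 and 4.17% in FLExD, 10.4, 10.9 and 7.93% in moderate and 16.2, 13.3 and 11.4% in severe mice. In all 3 pairs the control and FLExD mice overlapped, each moderate mouse lay above both and each severe mouse above the moderate mice. The mean share of Psmb8 was 5.62% ± 1.09 (SD, n = 3) in controls and 17.3% ± 2.47 in severe mice. For Psmb9 these were 1.98% ± 0.433 and 6.48% ± 0.977, and for Psmb10 4.74% ± 0.497 and 13.6% ± 2.44. Constitutive subunits thus remained the larger part of each pair in every mouse. Setting the 6 mice with both transgenes and TMX against the 6 with 1 transgene, the shares differed by 7.14, 2.803 and 6.92 percentage points for Psmb8, Psmb9 and Psmb10, each with an exact permutation p of 0.00216, the smallest this test can give and unchanged by adjustment over the 3 shares. Each moderate or severe group against controls gave an exact permutation p of 0.1, which is the smallest that 3 against 3 allows; FLExD against control gave 0.3, 0.9 and 0.8 by the same exact test.

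**Figure D4:**
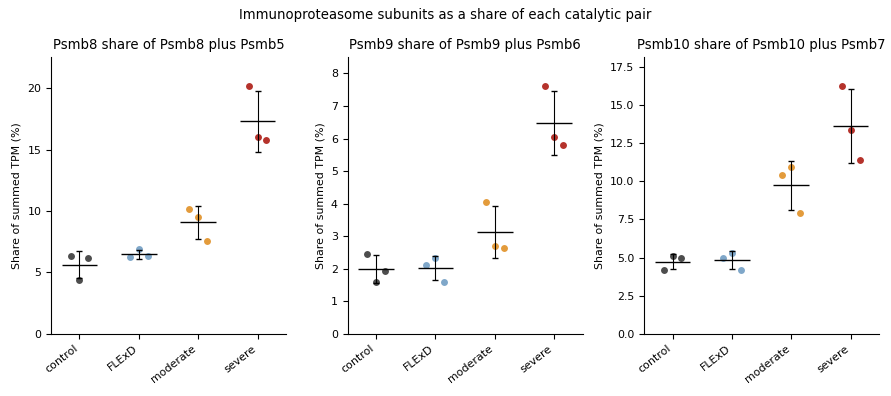
Share of each immunoproteasome subunit in the summed TPM of its catalytic pair (vertical axes, percent, from 0) in each mouse (points) by group, with mean and SD as bars. In each panel the severe mice lie above the moderate mice, and these above the control and FLExD mice.

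Not every count of the pairs was whole. Psmb8 and Psmb9 lie close together in the MHC region of chromosome 17. Psmb8 is at chr17:34197721-34201454 on the plus strand and Psmb9 at chr17:34181987-34187764 on the minus strand (GRCm38). Psmb9 overlaps Tap1 on the opposite strand while Psmb8 overlaps Gm20496. Their expected counts were whole numbers in only 8.33% of the mice for each, a sign that reads were divided among transcripts of several genes, and those of Psmb5 were whole in none, whereas those of Psmb6, Psmb7 and Psmb10, the last at chr8:105935735-105938444, were whole in every mouse. Psmb7 overlaps Nek6, Gm13586 and Gm27634, and Psmb10 overlaps Gm16156, yet their counts were whole. Psmb5 overlaps Mir686, and Psmb6 overlaps no other gene. Whether the library kit kept strand is not given in the sources used here, so reads of Psmb9 and Tap1 in the overlap cannot be told apart. Tap1 itself, the peptide transporter, had log2 fold changes of 0.95 ± 0.24 in moderate (adjusted p 0.00425) and 1.73 ± 0.23 in severe mice (adjusted p 1.56e-05) and was called higher in both.

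The activators, which open the core in place of the 19S particle, split. Psme1 and Psme2 form PA28 alpha and beta, a ring that interferon-gamma induces together with the immunoproteasome. Psme2 had CPM of 17.3, 15.7 and 14.03 in control, 17.2, 16.2 and 15.5 in FLExD, 24.6, 24.9 and 23.2 in moderate and 20.4, 23.2 and 23.8 in severe mice. Every mouse of both models lay above every control and FLExD mouse, and the models overlapped. It rose, with log2 fold changes of 0.63 ± 0.09 in moderate (adjusted p 6.45e-05) and 0.52 ± 0.09 in severe mice (adjusted p 0.000176); the latter came under the fold threshold with DESeq2, with median-of-ratios factors and without control mouse 1349 (0.43) or severe mouse 1079 (0.48). None of its counts was whole, so reads shared with other loci are counted in part. Its partner Psme1 had CPM of 23.8, 26.8 and 24.9 in control, 28.4, 27.02 and 21.7 in FLExD, 28.9, 26.9 and 23.5 in moderate and 24.3, 24.1 and 24.3 in severe mice. Psme3, the nuclear PA28 gamma, had CPM of 37.3, 35.7 and 32.2 in control, 32.1, 35.2 and 34.96 in FLExD, 31.8, 29.9 and 33.8 in moderate and 33.4, 33.9 and 30.2 in severe mice. For both, the groups overlapped, with log2 fold changes in the severe model of -0.06 ± 0.10 (adjusted p 0.648) and -0.11 ± 0.08 (adjusted p 0.247) with TMM and 1.25 and 1.196 with library size alone. Psme4, or PA200, a large nuclear activator, had CPM of 355, 313 and 331 in control, 309, 324 and 348 in FLExD, 232, 225 and 259 in moderate and 145, 179 and 173 in severe mice. The 4 groups stood in order, with control and FLExD mice overlapping, the moderate mice below them and the severe mice lowest. Psme4 fell with TMM by a log2 fold change of -1.01 ± 0.11 in severe mice (adjusted p 1.15e-06) but was 0.29 with library size alone. By level, mean TPM was 26.8 ± 1.04 (SD, n = 3) for Psme1 and 16.7 ± 0.705 for Psme2 in controls, and 56.7 ± 3.44 and 52.4 ± 3.601 in the severe model.

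In the structural part of the 20S core, 10 of the 11 alpha and non-catalytic beta subunits had log2 fold changes below 0 in the severe model with TMM, and all 11 lay above 0 with library size alone. Of the 7 alpha subunits 2 were called lower in the severe model (background 27.9%), Psma3 at -0.67 ± 0.09 (adjusted p 8.24e-06) and Psma6. None was called higher (background 32.9%). The class median was -0.23 with TMM and 1.07 with library size alone. Psma5, the highest of the class, had CPM of 40.5, 42.3 and 41.9 in control, 42.6, 40.7 and 39.4 in FLExD, 57.96, 48.8 and 57.6 in moderate and 53.9, 57.01 and 56.02 in severe mice. Psma6, the lowest, had CPM of 88.7, 82.5 and 88.6 in control, 82.99, 78.1 and 83.8 in FLExD, 66.4, 63.2 and 74.99 in moderate and 49.3, 53.5 and 55.8 in severe mice. All mice of both models lay above the controls for Psma5 and below them for Psma6, so members of 1 ring moved apart under the same scaling. Log2 fold changes in the severe model were 0.42 ± 0.08 (adjusted p 0.000307) for Psma5, under the fold threshold, and -0.71 ± 0.09 (adjusted p 3.54e-06) for Psma6, with 1.72 and 0.59 for library size alone. None of the 4 non-catalytic beta subunits was called with TMM (background in severe mice 27.9% lower and 32.9% higher). Their log2 fold changes in the severe model ran from -0.42 to -0.13. Psmb1, the highest of them, had CPM of 68.6, 67.01 and 67.8 in control, 68.1, 70.99 and 62.8 in FLExD, 72.5, 65.00 and 77.2 in moderate and 61.05, 59.8 and 64.7 in severe mice. Psmb3, the lowest, had CPM of 65.3, 64.3 and 62.95 in control, 67.2, 63.8 and 61.7 in FLExD, 59.1, 54.5 and 56.7 in moderate and 47.00, 45.6 and 51.1 in severe mice. For both the severe mice lay below the controls; the log2 fold changes were -0.13 ± 0.08 (adjusted p 0.163) and -0.42 ± 0.07 (adjusted p 0.000154) with TMM and 1.17 and 0.88 with library size alone. The other members of both classes, Psma1, Psma2, Psma4, Psma7, Psmb2 and Psmb4, had log2 fold changes between -0.31 and -0.07 there with TMM.

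The 19S base unfolds substrates. All 6 ATPases had log2 fold changes below 0 in both models with TMM and above 0 with library size alone, with a median in the severe model of -0.43 and 0.87, and all 6 had an adjusted p under 0.05 with TMM there (background 33.5% for genes below 0). Psmc1, the highest of them, had CPM of 97.6, 90.6 and 92.5 in control, 97.9, 98.9 and 102 in FLExD, 86.6, 75.4 and 90.03 in moderate and 68.02, 74.96 and 79.9 in severe mice. Psmc5, the lowest and the only ATPase called, had CPM of 104, 92.3 and 104 in control, 92.7, 87.2 and 103 in FLExD, 71.2, 66.7 and 75.6 in moderate and 53.05, 59.8 and 59.6 in severe mice. The severe mice lay below all controls for both genes. The log2 fold changes were -0.33 ± 0.09 (adjusted p 0.00386) and -0.80 ± 0.09 (adjusted p 2.41e-06) in the severe model, beside 0.97 and 0.50 with library size alone. The remaining ATPases, Psmc2, Psmc3, Psmc4 and Psmc6, ran from -0.47 to -0.36 with TMM. The other base subunits, the scaffolds Psmd1 and Psmd2 and the ubiquitin receptor Psmd4, were all called lower in the severe model with TMM (background 27.9%). Psmd1 had CPM of 174, 150.3 and 179.5 in control, 151, 149 and 170.3 in FLExD, 137, 128 and 149 in moderate and 108, 118 and 115 in severe mice. Psmd4 had CPM of 124, 115 and 115 in control, 122, 110.1 and 122 in FLExD, 96.5, 88.1 and 96.2 in moderate and 56.8, 68.2 and 71.8 in severe mice. Both were lower in every moderate mouse than in any control and lower again in every severe mouse. Psmd1 fell with TMM by -0.56 ± 0.10 (adjusted p 0.000146), Psmd2 by -0.58 ± 0.10 (adjusted p 0.000104) and Psmd4 by -0.85 ± 0.10 (adjusted p 2.01e-06), but with library size alone their log2 fold changes were 0.74, 0.72 and 0.45. The Psmd1 call was lost with at least 10 counts in every mouse or with no filter on low counts.

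The 19S lid, which holds the deubiquitinase Psmd14, was more mixed. In the severe model 3 of its 8 members were called lower with TMM (background 27.9%), Psmd6, Psmd7 and Psmd12. With library size alone none had a log2 fold change below 0. Psmd6, the lowest, had CPM of 144, 122 and 146 in control, 127, 119 and 139 in FLExD, 108, 96.7 and 116 in moderate and 68.02, 79.6 and 85.8 in severe mice. Psmd11, the highest, had CPM of 38.9, 38.98 and 43.6 in control, 41.2, 39.5 and 41.4 in FLExD, 57.2, 62.5 and 60.8 in moderate and 45.7, 46.6 and 46.1 in severe mice. In these TMM-scaled values Psmd6 stepped down from control to moderate to severe mice, whereas Psmd11 was highest in the moderate mice, intermediate in the severe mice and lowest in the control and FLExD mice, with no overlap between these 3 levels; in TPM the severe mice were highest for Psmd11, with means of 25.2 ± 2.17, 48.9 ± 3.92 and 61.1 ± 3.98 in control, moderate and severe mice. In severe mice Psmd6 stood at -0.82 ± 0.11 (adjusted p 1.31e-05), Psmd7 at -0.58 ± 0.10 (adjusted p 0.000104) and Psmd12 at -0.71 ± 0.09 (adjusted p 4.33e-06) with TMM, and 0.48, 0.72 and 0.59 with library size alone. Psmd11 rose by 0.57 ± 0.07 in the moderate model (adjusted p 1.72e-05) and had 0.19 ± 0.07 in the severe model (adjusted p 0.0328), under the fold threshold. Psmd14 itself had -0.03 ± 0.07 (adjusted p 0.696), and Psmd3, Psmd8 and Psmd13 ran from -0.39 to -0.07 with TMM.

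Of the 3 chaperones that help assemble the 19S base, Psmd10 (gankyrin) had CPM of 7.15, 6.94 and 5.69 in control, 5.76, 5.75 and 6.27 in FLExD, 8.897, 7.55 and 9.37 in moderate and 8.995, 9.34 and 9.28 in severe mice. Psmd9 had CPM of 14.9, 13.6 and 14.7 in control, 16.7, 16.5 and 17.1 in FLExD, 13.9, 13.2 and 13.9 in moderate and 10.8, 10.8 and 12.01 in severe mice. All mice of both models lay above the controls for Psmd10; for Psmd9 the severe mice lay below the controls and the FLExD mice above them. Log2 fold changes in severe mice were 0.48 ± 0.12 (adjusted p 0.00194) for Psmd10, 0.40 ± 0.08 (adjusted p 0.000424) for Psmd5 and -0.36 ± 0.08 (adjusted p 0.00115) for Psmd9 with TMM, none past the fold threshold, and 1.79, 1.71 and 0.94 with library size alone. Between FLExD and control mice Psmd9 had 0.22 ± 0.08 and Psmd5 0.21 ± 0.08, each with an edgeR adjusted p of 1. Psmd10 passed the fold threshold in the severe model without control mouse 1127 or 1246 or severe mouse 1047, and with either other filter on low counts.

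Severe and moderate muscle were also compared directly. With TMM, 2 of the 41 subunits were called higher in severe than in moderate mice (background 17.6%), Psmb8 at 0.65 ± 0.16 (adjusted p 0.00407) and Psmb9 at 0.84 ± 0.24 (adjusted p 0.00931), and 5 lower (background 18.8%), namely Psmb5, Psmb7, Psmd4, Psmd12 and Psme4. Psmb10, at -0.10 ± 0.13 (adjusted p 0.539), and Psme2, at -0.11 ± 0.09 (adjusted p 0.339), did not pass; with library size alone both were above 0 and called higher, at 0.60 and 0.59. With no fold threshold 21 were lower (background 26.3%) and 2 higher (background 24.1%), and with a threshold of 1 there were 0 lower (background 8.34%) and 0 higher (background 8.13%). The 5 called lower became 3 without moderate mouse 1236 or any 1 of the control or FLExD mice, 2 without moderate mouse 1331 or severe mouse 1047, 6 without moderate mouse 1308 and 7 without severe mouse 1079. With either other filter on low counts 2 were called lower. With library size alone 18 were called higher (background 57.8%) and 0 lower (background 4.93%), and on the log2(TPM + 1) scale 19 (background 48.2%) and 0 (background 3.77%).

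How the subunit pool was divided among the classes does not depend on scaling. The constitutive catalytic subunits took 15.8, 15.4 and 15.7% of the summed TPM of the 41 subunits in the control mice, 15.7, 15.4 and 14.9% in FLExD, 13.6, 13.8 and 13.1% in moderate and 11.4, 11.8 and 12.5% in severe mice. The immunoproteasome subunits took 0.643, 0.585 and 0.668% in control, 0.683, 0.731 and 0.573% in FLExD, 1.22, 1.16 and 0.863% in moderate and 1.88, 1.54 and 1.47% in severe mice. The catalytic share stepped down and the immunoproteasome share up with severity, with no overlap between controls, moderate and severe mice. Among the other classes, the 19S base without its ATPases went from a mean of 9.97% ± 0.1396 (SD, n = 3) in controls to 8.32% ± 0.2404 in severe mice, the alpha ring from 21.4% ± 0.471 to 23.5% ± 0.243 and the chaperones from 1.07% ± 0.0402 to 1.58% ± 0.0846. The non-catalytic beta subunits held 13.3% ± 0.517 in control, 14.8% ± 0.1701 in moderate and 14.9% ± 0.325 in severe mice. For the ATPases the means were 16.8% ± 0.211 in control, 15.6% ± 0.363 in moderate and 16.3% ± 0.103 in severe mice, with every moderate mouse below every control and severe mouse. The lid held 16.2% ± 0.578 in control, 17.1% ± 0.137 in moderate and 16.5% ± 0.299 in severe mice. By level, Psmb7 was the most abundant subunit in control muscle at a mean TPM of 153 ± 9.73 and Psmb9 the least at 2.64 ± 0.6596; in severe muscle they stood at 167 ± 13.2 and 11.8 ± 1.47.

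**Figure D5:**
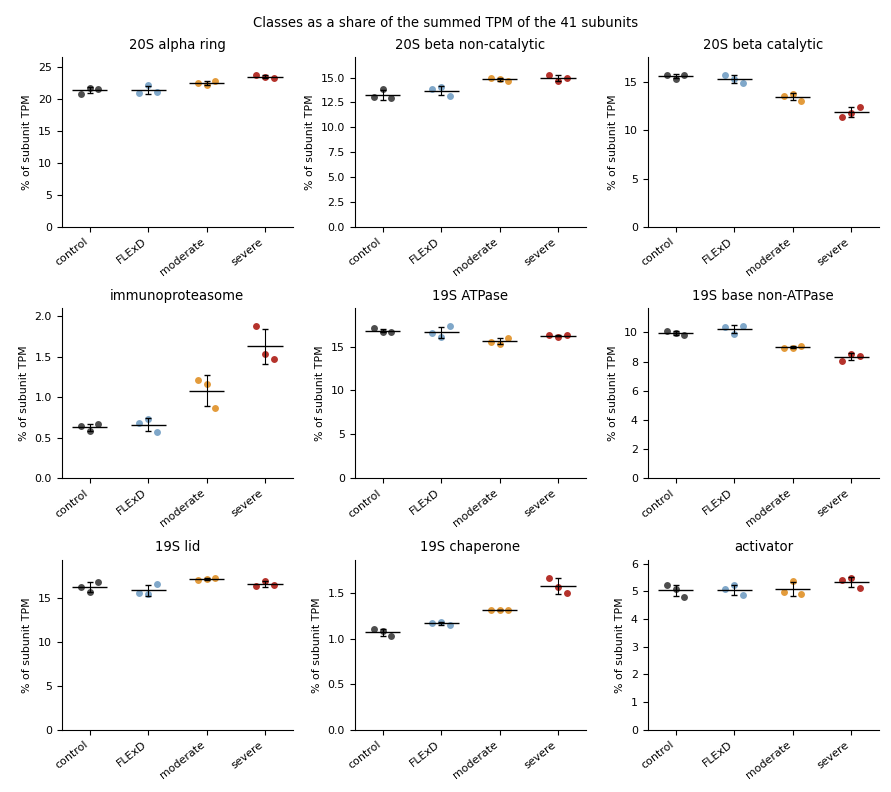
Part of the summed TPM of the 41 subunits taken by each of 9 classes (vertical axes, percent, from 0) in each mouse (points) by group, with mean and SD as bars. The constitutive catalytic class is lowest and the immunoproteasome class highest in the 3 severe mice.

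Genes that work with the proteasome were counted in lists. Their counts are to be read against all genes tested: calls above 0 made up 24.4% of these in moderate and 32.9% in severe mice, and calls below 0 17.0% and 27.9%. The NRF1 axis holds the transcription factor Nfe2l1 (NRF1), which drives subunit genes when proteasome activity is short, its processing enzymes Ngly1 and Ddi2, its relatives and their partners. Of 9 genes tested with TMM, 4 were called lower in moderate and 5 in severe mice and none higher (of these 5 only Nfe2l1 and Ddi2 stayed below 0 with library size alone), with a median of -0.71 in the severe model beside 0.08 over all genes. Nfe2l1 had a mean CPM of 487 ± 14.2 (SD, n = 3) in control and 134 ± 21.05 in severe mice, a log2 fold change of -1.86 ± 0.12 (adjusted p 6.59e-09), and remained below 0 at -0.56 with library size alone. Ddi2 fell by -1.76 ± 0.31 (adjusted p 0.000234), at -0.47 with library size alone, and Ngly1 by -1.27 ± 0.11 (adjusted p 8.53e-08), which turned to 0.03 with library size alone. In the moderate model the same 3 genes had -0.66 ± 0.12, -0.97 ± 0.30 and -0.69 ± 0.11, all called lower with TMM. Their moderate values with library size alone are not given here. In TPM the step was smaller for Nfe2l1, at 122, 120 and 116 in control and 100.2, 114 and 104 in moderate mice.

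Of 11 assembly factors and partners tested, moderate mice had 2 called higher and 1 lower, and severe mice 1 higher and 3 lower, with a median of -0.17 there. The proteasome-binding scaffold AI314180 (Ecm29) fell most, from a mean CPM of 471 ± 32.2 to 102 ± 8.31, a log2 fold change of -2.21 ± 0.11 (adjusted p 7.03e-10) that stayed below 0, at -0.90, with library size alone. The ubiquitin receptor Adrm1 fell by -0.77 ± 0.09 (adjusted p 2.47e-06) and the chaperone Psmg2 by -0.52 ± 0.10 (adjusted p 0.0002799) with TMM, but stood at 0.53 and 0.78 with library size alone. The chaperone Psmg4 rose by 0.63 ± 0.15 in moderate (adjusted p 0.00303) and 0.76 ± 0.15 in severe mice (adjusted p 0.000403), and Pomp, which matures the core, rose by 0.66 ± 0.12 in the moderate model (adjusted p 0.000335) and had 0.07 ± 0.12 (adjusted p 0.603) in the severe model.

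Of 5 genes for ubiquitin and its activating enzymes, 1 was called higher and 1 lower in the severe model with TMM, and none was below 0 there with library size alone. The ubiquitin gene Ubb fell with TMM by -0.60 ± 0.12 (adjusted p 0.000613), but with library size alone it stood at 0.70. The activating enzyme Uba6 rose by 0.52 ± 0.08 (adjusted p 6.03e-05), which lies close to the fold threshold. Of 8 genes for p97 and the shuttle factors that carry substrates to the proteasome, 2 were called lower in the severe model with TMM and none higher, and none was below 0 with library size alone. Ubqln4 fell with TMM by -1.15 ± 0.08 (adjusted p 2.44e-08) and the p97 gene Vcp by -0.52 ± 0.10 (adjusted p 0.0001996), but they were 0.15 and 0.78 with library size alone. In the moderate model no gene of either list was called with edgeR.

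Most genes of interferon-gamma signaling and antigen processing were called higher, as the immunoproteasome genes were except Psmb9 in the moderate model. Of 9 tested, 7 were called higher in moderate and 8 in severe mice and none lower, with medians of 0.77 and 0.99. The largest changes in the severe model were those of Irf8, a factor of myeloid cells, at 2.45 ± 0.18 (adjusted p 2.58e-08), of Nlrc5, the transactivator of MHC class I genes, at 2.17 ± 0.23 (adjusted p 1.03e-06), and of Tap1, given above. The interferon-gamma gene itself, Ifng, had between 0 and 12 counts in every mouse and was not tested. The summed TPM of the list was 112, 101 and 106 in control, 104, 112 and 119.6 in FLExD, 275, 234 and 218 in moderate and 662, 625 and 564 in severe mice, most of it B2m in each. Control and FLExD mice were alike, and moderate and severe mice stood apart above them in the same order as the immunoproteasome shares.

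Markers of other cells moved with the same groups. The summed TPM of 12 leukocyte markers, with the macrophage gene Lyz2 the most abundant in every mouse, was 58.1, 51.2 and 62.6 in control, 49.4, 56.99 and 62.8 in FLExD, 541, 466 and 469 in moderate and 1815, 1636 and 1535 in severe mice. Of the 9 tested, 8 were called higher in moderate and 9 in severe mice. The lymphocyte markers Cd3e, Cd79a and Ncr1 stayed at 12 counts or fewer in every mouse; Ncr1 was at 0 in 5 of the 6 control and FLExD mice, and Cd79a in 1. Leukocytes carry Psmb8, Psmb9 and Psmb10 as a rule, and the part of these cells in the change of the shares was not tested. Of 9 muscle fiber markers, 7 were called lower in moderate and 9 in severe mice, all 9 of them below 0 with library size alone too, with medians of -1.43 and -3.65. Of 4 fibroblast markers 2 were higher and 1 lower in the severe model, all 3 endothelial markers were lower and all 3 markers of dividing cells higher with TMM, with medians of 1.21, -1.15 and 6.85. The summed TPM of the markers of dividing cells, led by Top2a or Cdk1, was at most 0.7 in control and FLExD mice and at least 75.4 in severe mice. For fibroblasts, led by Dcn or Col3a1, it was at most 450.0 and at least 1716, and for endothelium, led by Pecam1, it ran from 29.3 to 43.9 over all mice. With library size alone the log2 fold changes of Dcn, Pecam1 and Cdh5 turned above 0. None of these markers was at 0 counts but Cdk1 in 1 control mouse.

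Promoters of the subunits (RefSeq, GRCm38.p6, from 250 bases before to 50 after the start) were searched on both strands for short motifs. They were at hand for 35 of the 41 subunits, which have 38 promoters in all. TGACNNNGC, the core of the antioxidant response element that NRF1 and its relatives bind, was present for 6 subunits, or 15.8% of the 38 promoters, beside 12.4% of all 32851. CCAAT was present for 13 (34.2% beside 37.4%). GAAA, any 2 letters and GAAA again, a core of the interferon-stimulated response element, was present for 4, Psmb3, Psmd4, Psmd9 and Psme1 (10.5% beside 3.44%). These shares describe letters in a window and do not show binding. The windows below are from catalytic subunits and activators whose values are given above, with the matched letters in capitals: TGACNNNGC in Psmb5 (chr14:54618024-54618052, minus strand), Psmb6 (chr11:70525338-70525366, plus strand) and, on the other strand, Psme4 (chr11:30771758-30771786, plus strand), and the GAAA repeat, also on the other strand, in Psme1 (chr14:55578493-55578522, plus strand).
Psmb5: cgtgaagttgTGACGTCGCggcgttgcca
Psmb6: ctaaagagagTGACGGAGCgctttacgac
Psme4: cgctgcggctGCAGCGTCAccagaagagc
Psme1: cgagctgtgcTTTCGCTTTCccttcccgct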

How the data were processed

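Gastrocnemius mRNA of 12 mice in 4 groups of 3 was used, with 23796902 to 29136403 expected counts per library; the SE of a log2 fold change gives the precision reached for each gene. The expected counts were made by the authors with RSEM 1.2.4 and Bowtie on mm10 gene models and deposited as 1 value per gene and mouse. TPM values deposited in the same tables by the authors come from RSEM as well and correct for transcript length. Expected counts were rounded and tested with edgeR 4.0.16 in R 4.3.3 (quasi-likelihood F-test, robust, TMM factors, filterByExpr), with 4 groups in 1 fit and Benjamini-Hochberg adjustment over 16679 genes. Shares of TPM were compared by exact permutation. The scripts were tested on simulated data. Alternatives were other scalings, DESeq2 1.42.0, limma 3.58.1 on log2(TPM + 1), other filters and thresholds, only the 2 groups compared, and each mouse left out. For named genes of the pathway lists only the other scalings, DESeq2 and limma were run, and these were chosen after seeing the data. Values per mouse are given for Psmb5 to Psmb10, for Psme1 to Psme4 and for the subunits with the highest and lowest log2 fold change of each other class in the severe model; list genes are named where called, up to 3 per direction. Members and lists were chosen with earlier results of these data known. Some genes of the pathway lists and 1 motif are not reported here, and the counts and medians of those lists leave them out. Paaf1 was left out of its list because the table has no such symbol. No promoter was at hand for Psmb1, Psmb2, Psmb7, Psmc3, Psmd3 and Psmd7.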

Additional observations from a re-analysis of the deposited data

How the results depend on the processing

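Groups of 3 mice can miss small changes, and bulk muscle mixes cell types whose parts changed. No paired analysis was possible because each mouse belonged to a single group and the labels give no litter or other pairing. Direction depends on scaling. Over all alternatives, 1516 log2 fold changes of named genes kept call and direction and 46 lost the call. Another 54 gained it and 148 changed sign, called or not. Of the 1516, 978 came from leaving out 1 mouse at a time. With library size alone 41 kept call and direction, 4 lost the call, 12 gained it and 54 changed sign. With limma on log2(TPM + 1) these counts were 44, 5, 11 and 51. The typical gene takes a larger part of the severe libraries, and the cause was not tested. The shares of Psmb8, Psmb9 and Psmb10 in their pairs kept their direction in every setting, and leaving out 1 mouse at a time gave differences of 5.75 to 8.27, 2.24 to 3.24 and 6.01 to 7.67 percentage points.

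Counts of subunits called moved as follows. With library size alone, 21 were higher in moderate and 36 in severe mice against control and 18 in severe against moderate mice, with 0 lower in severe mice against either. With limma on log2(TPM + 1) these counts were 13, 34 and 19, and 0 lower. With DESeq2 and with median-of-ratios size factors 2 were lower in moderate mice, where TMM gave 0 (background with median-of-ratios factors 17.9%). With median-of-ratios factors 3 were higher in severe mice (background 32.1%), where TMM gave 4. With at least 10 counts in every mouse, and also with no filter on low counts, 7 were higher in severe mice against control and 2 lower in severe against moderate mice. These settings tested 12954 and 28033 genes. Their shares of all genes called are not given here, and the backgrounds of the main setting do not stand in for them. With no fold threshold, 7 were higher (background 29.0%) and 11 lower (background 24.9%) in moderate mice, 8 higher (background 37.7%) and 26 lower (background 33.5%) in severe mice, and 21 lower (background 26.3%) in severe against moderate mice. With a log2 fold threshold of 1, 0 were higher (background 15.9%) in moderate mice, 2 higher (background 23.7%) and 2 lower (background 17.6%) in severe mice, and 0 higher (background 8.13%) and 0 lower (background 8.34%) in severe against moderate mice. Leaving out 1 mouse at a time, the counts ran from 0 to 4 lower in moderate mice, 3 to 5 higher and 11 to 13 lower in severe mice, and 2 to 7 lower in severe against moderate mice. The shares of all genes called in these fits are not given here.

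Log2 fold changes that changed sign with library size alone were, for FLExD against control 0.018 (Psmb5), 0.00587 (Psmb10), 0.00513 (Psmb1) and 0.019 (Psmd4); for moderate against control 0.14 (Psmb6), 0.13 (Psmb7), 0.47 (Psme3), 0.12 (Psme4), 0.26 (Psma6), 0.43 (Psmb3), 0.45 (Psmc1), 0.12 (Psmc5), 0.32 (Psmd1), 0.27 (Psmd4), 0.24 (Psmd6) and 0.53 (Psmd9); for severe against control 0.98 (Psmb5), 0.50 (Psmb6), 0.23 (Psmb7), 1.25 (Psme1), 1.196 (Psme3), 0.29 (Psme4), 0.59 (Psma6), 1.17 (Psmb1), 0.88 (Psmb3), 0.97 (Psmc1), 0.50 (Psmc5), 0.74 (Psmd1), 0.45 (Psmd4), 0.48 (Psmd6), 0.94 (Psmd9), 0.53 (Adrm1), 0.78 (Psmg2), 0.028 (Ngly1), 0.70 (Ubb), 0.15 (Ubqln4) and 0.78 (Vcp); for severe against moderate 0.19 (Psmb5), 0.35 (Psmb6), 0.10 (Psmb7), 0.60 (Psmb10), 0.57 (Psme1), 0.59 (Psme2), 0.17 (Psme4), 0.33 (Psma6), 0.49 (Psmb1), 0.45 (Psmb3), 0.52 (Psmc1), 0.39 (Psmc5), 0.42 (Psmd1), 0.18 (Psmd4), 0.32 (Psmd11), 0.24 (Psmd6) and 0.41 (Psmd9). With limma on log2(TPM + 1) they were, for FLExD against control -0.011 (Psme1), -0.024 (Psmb3), 0.039 (Psmd4) and -0.00700 (Psmd11); for moderate against control 0.019 (Psmb6), 0.00816 (Psmb7), 0.35 (Psme3), 0.15 (Psma6), 0.30 (Psmb3), 0.32 (Psmc1), 0.21 (Psmd1), 0.18 (Psmd4), 0.11 (Psmd6) and 0.38 (Psmd9); for severe against control 0.86 (Psmb5), 0.40 (Psmb6), 0.12 (Psmb7), 1.05 (Psme1), 1.02 (Psme3), 0.22 (Psme4), 0.50 (Psma6), 1.06 (Psmb1), 0.76 (Psmb3), 0.86 (Psmc1), 0.40 (Psmc5), 0.65 (Psmd1), 0.32 (Psmd4), 0.38 (Psmd6), 0.84 (Psmd9), 0.43 (Adrm1), 0.64 (Psmg2), 0.59 (Ubb), 0.082 (Ubqln4) and 0.70 (Vcp); for severe against moderate 0.21 (Psmb5), 0.38 (Psmb6), 0.11 (Psmb7), 0.63 (Psmb10), 0.58 (Psme1), 0.59 (Psme2), 0.23 (Psme4), 0.35 (Psma6), 0.51 (Psmb1), 0.47 (Psmb3), 0.54 (Psmc1), 0.41 (Psmc5), 0.44 (Psmd1), 0.14 (Psmd4), 0.32 (Psmd11), 0.27 (Psmd6) and 0.46 (Psmd9). With median-of-ratios size factors they were, for FLExD against control 0.00421 (Psmb5) and 0.00396 (Psmd4). With DESeq2 they were, for FLExD against control 0.00418 (Psmb5) and 0.00403 (Psmd4). With at least 10 counts in every mouse they were, for FLExD against control 0.000569 (Psmb5) and 0.000571 (Psmd4); for severe against control 0.058 (Psme1) and 0.00306 (Psme3). With no filter on low counts they were, for FLExD against control -0.00392 (Psmb3); for severe against control 0.044 (Psme1). With only the 2 groups compared they were, for FLExD against control 0.00339 (Psmb5) and 0.00327 (Psmd4). Leaving out 1 mouse at a time, those that changed sign ran, for FLExD against control -0.024 to 0.029 (Psmb5), -0.13 to 0.20 (Psmb8), -0.26 to 0.19 (Psmb9), -0.092 to 0.091 (Psmb10), -0.052 to 0.13 (Psme1), -0.019 to 0.13 (Psme2), -0.10 to 0.00329 (Psme3), -0.083 to 0.019 (Psme4), -0.050 to 0.029 (Psmb1), -0.036 to 0.021 (Psmb3), -0.031 to 0.047 (Psmd4) and -0.022 to 0.061 (Psmd11); for moderate against control -0.011 to 0.14 (Psmb1); for severe against moderate -0.019 to 0.091 (Psme3) and -0.061 to 0.075 (Psma5).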
